A study of Arabidopsis thaliana with 6 samples.

Results

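The direct contrast between Arabidopsis seedlings carrying 35S:FLAG-SUB1A and seedlings carrying 35S:FLAG-SUB1C rests on 4 ATH1 arrays, 2 for each line, of the 6 in the series. The members are those 4 arrays, chosen by their titles, and the features are all 22746 probe sets of the array that are not control probe sets. Each group is in the Col-0 background and was harvested as whole seedlings at 7 days, untreated, from plates with sucrose, so background, age, medium and light regime are common to all groups. The transgenes encode FLAG-tagged SUB1A or SUB1C from rice under the 35S promoter, which is active in most plant tissues. The remaining 2 arrays came from wild-type (WT) seedlings without a transgene. They enter neither the contrast nor the main fit, and their levels are shown for orientation. An alternative fit adds them to the estimate of spread and is named for some of the calls it changes. The labels list no line with an empty vector, and they do not say how many independent transformants stand behind each array. Effects of the rice proteins and other differences between the lines therefore cannot be told apart.

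SUB1A and SUB1C belong to the ethylene response factor (ERF) family of transcription factors and lie side by side at the rice Submergence 1 locus. In rice, SUB1A is known for submergence tolerance: it restrains shoot elongation and the use of carbohydrate reserves under water and dampens gibberellin responses. SUB1C is present in tolerant and intolerant rice and is not by itself a tolerance gene. ERF proteins act through short promoter elements, and in Arabidopsis the family controls ethylene, cold, dehydration and defence responses.

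Expression is given as the deposited log2 value, and a difference is the mean of the SUB1A arrays minus the mean of the SUB1C arrays ± its standard error (SE) in the limma fit, with n = 2 biological replicates per line. "Higher" and "lower" stand for genes past a Benjamini-Hochberg adjusted p of 0.05 over all 22746 probe sets, always in the SUB1A line relative to the SUB1C line. The number of arrays limits the precision. Array medians lay between 7.60 and 7.61, the arrays of a line correlated at 0.998 (SUB1A) and 0.999 (SUB1C) over all probe sets, and arrays of different lines at 0.993. Probe sets are not independent replicates, so these correlations are descriptions. The actin control, read at its 3′ minus its 5′ end as a sign of RNA integrity, lay between 2.24 and 2.44 in the 4 arrays. A probe set that lists a single gene was available for 13355 genes, and 873 of these fell into one or more of 69 functional classes defined by gene names.

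The lines differed at many genes, mostly by small amounts. Of all probe sets 13.3% were past the threshold, 1434 higher and 1592 lower. The median absolute difference of these 3026 probe sets was 0.39, and 187 differed at least 2-fold, 120 of them higher and 67 lower. Among the 13355 genes 11.5% were past the threshold, 5.39% higher and 6.07% lower, and the shares of the classes below are read against these values. The 4 arrays did not overlap between the lines for 55.0% of the genes, so a gap between the lines is by itself common. The median difference over all genes was 0.01, and 7058 of them were above 0. The number of probe sets past the threshold was 1231 without SUB1C replicate 1 and 1352 without SUB1C replicate 2. Of the genes, 480 (3.59%) stayed past the threshold, in the same direction, whichever array was left out, 1.60% higher and 1.99% lower. A class member is called stable below where it is one of these.

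Among the largest differences, the late embryogenesis abundant (LEA) genes M17 and LEA18 and the glycoside-processing genes BGLU19 and UGT71C3 were higher in the SUB1A line. The orphan gene QQS, the thionin gene THI2.2, the wall gene EXPA8 and the auxin gene GH3.3 were lower. M17, a seed LEA gene, measured 8.18 and 8.43 in the SUB1A arrays and 4.65 and 4.56 in the SUB1C arrays. The SUB1A arrays were both well above the SUB1C arrays, which were below 5, a level read here as near background, where differences are compressed. The difference was 3.70 ± 0.09 (adjusted p = 1.71e-05). BGLU19, a beta-glucosidase, measured 9.40 and 8.99 against 7.30 and 6.63, higher by 2.23 ± 0.22 (adjusted p = 0.00160). The arrays of each line were spread but did not meet. LEA18 measured 7.25 and 7.66 in the SUB1A arrays against 5.40 and 5.10, higher by 2.21 ± 0.15. UGT71C3, a UDP-glycosyltransferase, measured 9.06 and 9.03 against 7.02 and 7.09, with almost no spread within a line, and was higher by 1.99 ± 0.06 (adjusted p = 2.16e-05).

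The other 8 of the 12 genes with the largest higher values have no described product in the annotation used here. None of these 8 entered the stress, defence, hormone or regulator classes below, which were built from names. The class counts can therefore miss family members with large differences. AT2G47710 stood first, with 11.34 and 11.48 in the SUB1A arrays and 7.38 and 6.94 in the SUB1C arrays, a difference of 4.25 ± 0.14. Both SUB1C arrays were low, and the WT arrays, at a mean of 11.2, were close to the SUB1A arrays. AT3G15670, AT3G02480, AT3G47380, AT1G35710, AT5G03350, AT1G80130 and AT3G17520 were higher by 2.08 to 2.60.

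QQS, an Arabidopsis orphan gene known for affecting starch content, gave the largest difference in the other direction. It measured 6.14 and 6.21 in the SUB1A arrays and 9.78 and 9.86 in the SUB1C arrays. The SUB1C arrays were high, the SUB1A arrays low, and the WT mean of 6.78 was nearer the SUB1A arrays. The difference was -3.64 ± 0.06, or 12.5-fold, with an adjusted p of 6.1e-06. THI2.2, which encodes a thionin, a small antimicrobial peptide, measured 9.35 and 9.69 against 12.20 and 12.21 and differed by -2.69 ± 0.11. EXPA8, an expansin that loosens cell walls, measured 9.41 and 9.49 against 10.86 and 10.76. GH3.3, which conjugates auxin to amino acids, measured 8.37 and 9.00 against 9.98 and 10.05. Neither gene overlapped between the lines, and the SUB1A arrays of GH3.3 were the more scattered. TPS-CIN, a monoterpene (cineole) synthase, changed by -1.42 ± 0.19, but a near-identical neighbouring copy exists and the probe set may read both. The other 7 of the 12 genes with the largest lower values, AT1G66100, AT4G14060, AT5G38910, AT3G54040, AT1G26250, AT5G37990 and AT3G51350, differed by -2.59 to -1.31. These 7 are likewise outside the stress, defence, hormone and regulator classes. AT5G38910 was past the threshold with a limma adjusted p of 0.0146 and lost its call without replicate 1 or replicate 2 of the SUB1C line. It measured 7.57 and 8.66 in the SUB1A arrays against 9.92 and 9.73, so the SUB1A arrays were the scattered ones. The remaining 23 of these 24 genes stayed past the threshold whichever array was left out.

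**Figure D1:**
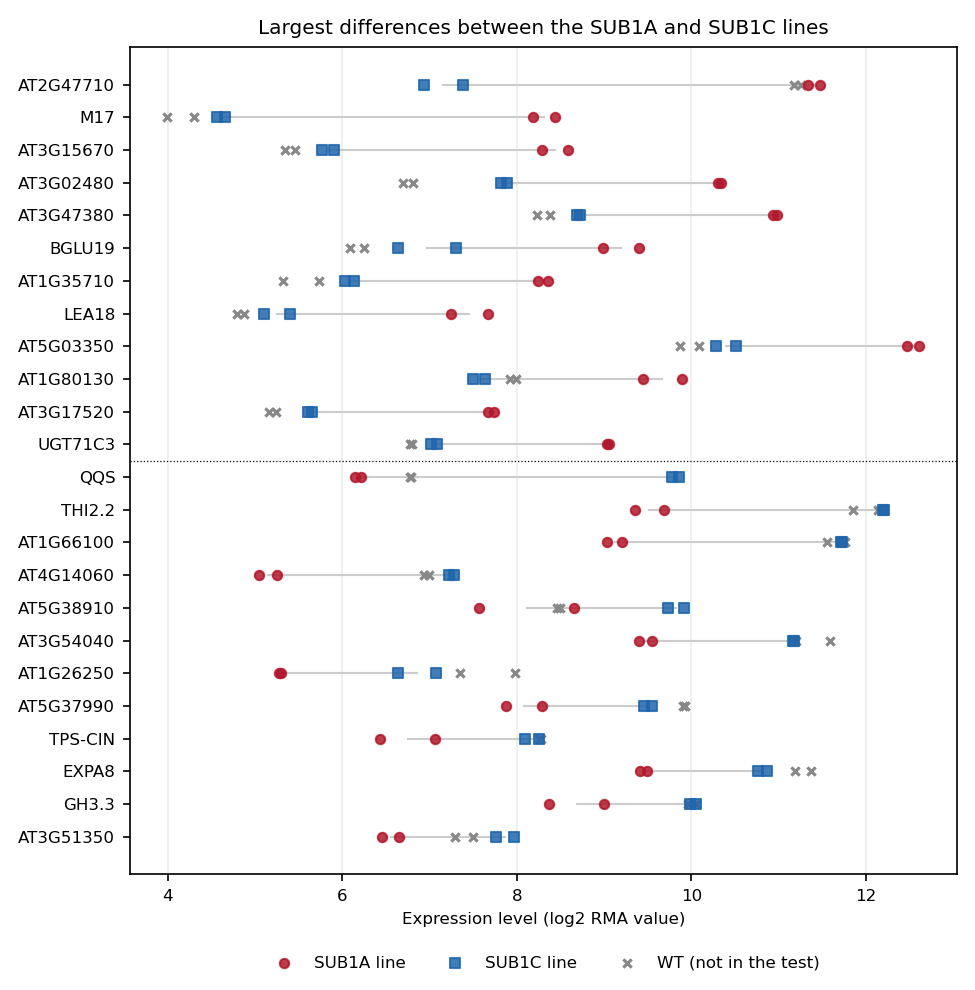
Expression level (x axis, log2 RMA value) of the 12 genes furthest above and the 12 furthest below the SUB1C line in the SUB1A line (y axis, separated by the dotted line). Circles are the SUB1A arrays, squares the SUB1C arrays and crosses the WT arrays, which were not tested; grey lines join the means of the transgenic lines. The circles and squares of each gene are apart, as the rule that chose the genes requires, and for AT2G47710 the WT arrays lie beside the SUB1A arrays.

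Across the 46 classes with at least 5 measured genes, the shares past the threshold ran from 0 to all members. Among the classes with more higher than lower members were the WRKY factors, UDP-glycosyltransferases, LEA proteins, senescence genes and genes encoded in the plastid. Among those with more lower than higher members were cold genes, expansins, xyloglucan enzymes, thionins and defensins, auxin response genes, glutathione transferases, transporters and autophagy genes. No member passed in 4 classes: 6 cytokinin genes, of which 0 had an unadjusted limma p under 0.05, 6 lignin and suberin genes (1 higher and 3 lower at that level), 13 nuclear photosynthesis genes (6 lower) and 10 subtilases (2 lower). Of all 13355 genes, 1791 were higher and 1651 lower at that unadjusted level, against which these and later such counts are read.

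**Figure D2:**
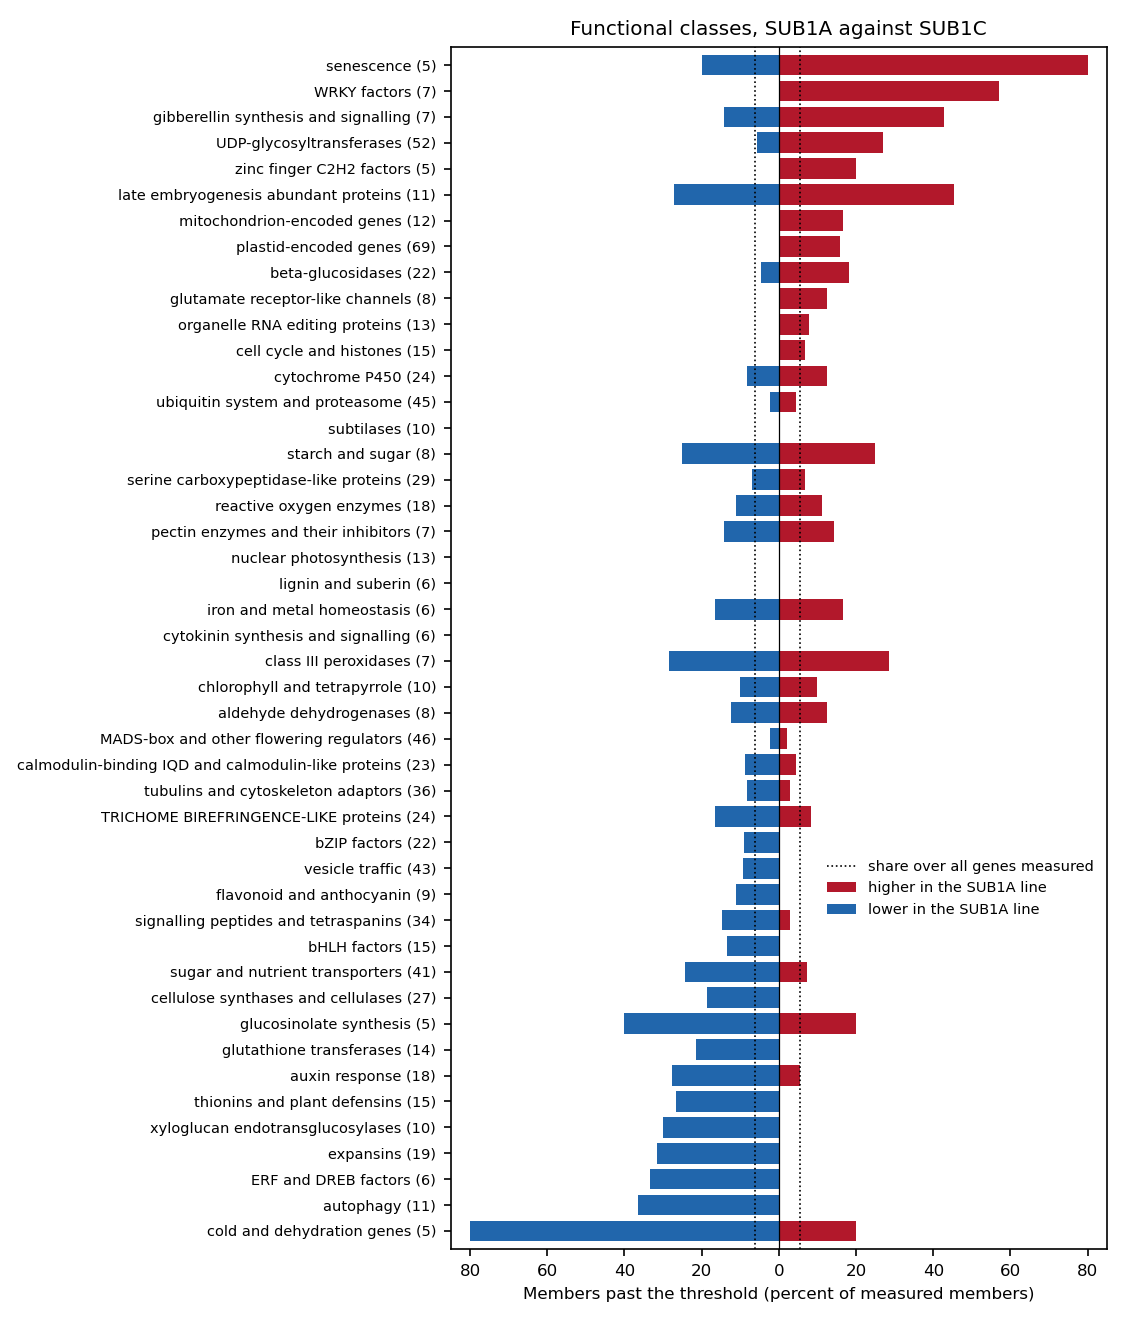
Share of measured members past the threshold (x axis, percent) in each functional class with at least 5 measured genes (y axis, number of genes in brackets), higher in the SUB1A line to the right and lower to the left. Dotted lines mark the shares over all genes measured, 5.39% higher and 6.07% lower; cold and dehydration genes reach 80% lower and senescence genes, of which there are 5, reach 80% higher.

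Stress protection genes split into a group that was higher and a group that was lower. LEA proteins, hydrophilic proteins that accumulate in drying seeds and in dehydrated tissue, were higher at 5 of 11 measured genes (45.5%) and lower at 3 (27.3%), with 4 and 2 of these stable. The class holds only genes found by name. Its counts and median therefore leave out any LEA gene among the large differences without a described product. Besides M17 and LEA18, AtLEA4-1 measured 6.73 and 7.08 in the SUB1A arrays against 5.08 and 5.20. The dehydration-linked LEA4-5 measured 7.16 and 7.52 against 6.48 and 6.42. The lines were apart at both genes, which were higher by 1.76 ± 0.11 and 0.89 ± 0.11. A dehydrin named LEA was higher by 0.37 ± 0.07, at 5.33 and 5.35 in the SUB1A arrays and near background in the SUB1C arrays, and was not stable.

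The lower LEA genes were the dehydrins COR47 and LTI30 and AT2G46140 (LEA27). M10, AT1G54410 and AT2G44060 were not past the threshold, at 0.10, -0.08 and -0.02, and the class median was 0.10. AT2G46140 lost its call without SUB1A replicate 1 (adjusted p = 0.0676) and without SUB1C replicate 1 (0.128).

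Cold and dehydration genes were lower at 4 of 5 measured members (80%), all 4 stable, with a class median of -0.67. COR47 and LTI30 also count among the LEA proteins above. COR15A, a chloroplast protein that protects membranes during freezing, measured 9.42 and 9.97 in the SUB1A arrays and 11.08 and 10.84 in the SUB1C arrays. Its close relative COR15B measured 8.82 and 9.02 against 10.12 and 9.97. At both genes the SUB1A arrays were the low ones, and the differences were -1.26 ± 0.17 (adjusted p = 0.00556) and -1.13 ± 0.09 (adjusted p = 0.000769). COR47 changed by -0.67 ± 0.09 and LTI30 by -0.46 ± 0.06, at levels between 10.97 and 12.66. COR27, a cold- and clock-regulated gene, went the other way: it measured 8.47 and 8.19 against 7.88 and 7.47, higher by 0.65 ± 0.15 (adjusted p = 0.0320). Its adjusted p was 0.104 without SUB1A replicate 1 and 0.109 without SUB1C replicate 2.

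The other stress classes described had small differences among their measured members. Reactive oxygen enzymes had 2 of 18 members higher (11.1%) and 2 lower (11.1%), of which 1 was stable, with thioredoxin TRXF2 at -0.40 ± 0.06 and glutaredoxin GRX480 at 0.43 ± 0.06. Of 3 measured hypoxia genes 0 passed by limma, and 2 had an unadjusted p under 0.05: PDC2, a pyruvate decarboxylase, differed by 0.04 ± 0.06, AT4G17260 by -0.17 ± 0.06 and AT3G10040 by -0.22 ± 0.07. The hypoxia genes ADH1, PDC1 and HB1 were not among the measured members, so the class is covered only in part. The 3 measured heat shock genes differed by 0.04 to 0.10, with 0 past the threshold by limma and 0 at an unadjusted p under 0.05.

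**Figure D3:**
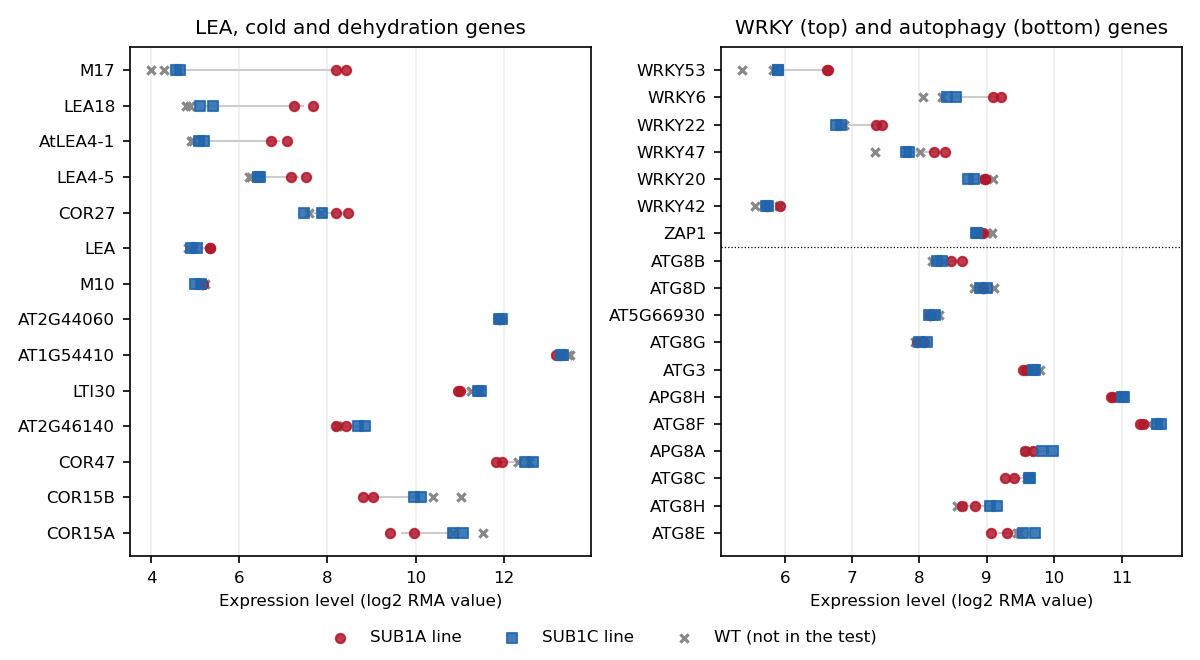
Expression level (x axis, log2 RMA value) of every measured LEA, cold and dehydration gene (left) and of every measured WRKY and autophagy gene (right), each ordered by the difference between the lines. Circles are SUB1A arrays, squares SUB1C arrays and crosses WT arrays, which were not tested. The left panel runs from M17, with SUB1A arrays above 8 and SUB1C arrays below 5, to COR15A, where the order of the lines is turned; the right panel shows gaps below 1 for all genes.

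Defence genes were found among the higher and the lower genes. The small antimicrobial thionins and plant defensins had 4 of 15 measured members lower (26.7%) and 0 higher by limma, also at an unadjusted p under 0.05. This class too was built from names and can miss members, and 6 of the 15 were near background in both lines. THI2.2 is described above. The defensin gene PDF1.2b measured 5.87 and 5.77 in the SUB1A arrays against 6.91 and 7.11, a difference of -1.19 ± 0.08, from a probe set that can cross-hybridise with related defensins. PDF1.2, a marker of jasmonate and ethylene responses, measured 6.24 and 6.47 against 6.73 and 6.74, a small gap of -0.38 ± 0.08 (adjusted p = 0.0305), and PDF2.5 changed by -0.50 ± 0.09. THI2.2 and PDF1.2b were the stable ones, 2 in all, and the class count was 2 without SUB1C replicate 1. With the WT arrays added to the estimate of spread, the class count was also 2, with PDF1.2 at adjusted p = 0.423 and PDF1.2b at 0.0874.

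The WRKY factors, transcription factors best known from immunity and senescence, were higher at 4 of 7 measured members (57.1%), and 7 of 7 differences were above 0, with a median of 0.48. WRKY53, a regulator of leaf senescence, measured 6.64 and 6.62 in the SUB1A arrays and 5.90 in both SUB1C arrays. WRKY6, linked to senescence and defence, measured 9.21 and 9.09 against 8.54 and 8.41. WRKY22, which acts downstream of a pattern-triggered kinase cascade, measured 7.35 and 7.44 against 6.77 and 6.83. None of the 3 overlapped between the lines, and they were higher by 0.73 ± 0.06, 0.67 ± 0.07 and 0.60 ± 0.06, all stable. WRKY47 was higher by 0.48 ± 0.07 (adjusted p = 0.00746) and lost the call without SUB1C replicate 2 and with the WT arrays in the fit. WRKY20, WRKY42 and ZAP1 differed by 0.20, 0.10 and 0.08 and did not pass.

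Single immune genes followed both directions. The receptor kinase gene EFR, which recognises a bacterial elongation factor peptide, was higher by 0.47 ± 0.06, and THE1, a kinase that monitors wall integrity, by 0.52 ± 0.07. GRX480, a salicylate-responsive glutaredoxin, and SAG101, a partner of immune receptors, were higher by 0.43 ± 0.06 and 0.34 ± 0.06. SAG101 was not stable, with an adjusted p of 0.111 without SUB1C replicate 2. The chitinase gene ChiC measured 10.13 and 10.31 against 9.45 and 9.39 and was higher by 0.80 ± 0.08. The osmotin-like OSM34 measured 10.25 and 10.26 in the SUB1A arrays against 11.43 in both SUB1C arrays, a difference of -1.17 ± 0.06. PR-1-LIKE changed by -0.77 ± 0.09, so the 3 measured pathogenesis-related genes moved in both directions.

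Beta-glucosidases, which release aglycones from stored glucosides, were higher at 4 of 22 measured genes (18.2%), 3 of them stable, and lower at 1. Of the 22 genes, 8 were near background in both lines. After BGLU19, BGLU45 measured 6.22 and 6.52 against 5.65 and 5.48, and BGLU44 measured 12.44 and 12.53 against 11.84 and 11.79. Both were higher, by 0.80 ± 0.11 and 0.67 ± 0.06, and the lines did not overlap. BGLU33 changed by -0.59 ± 0.11. Of 5 measured glucosinolate genes, BCAT4, an early enzyme of methionine chain elongation, changed by -0.53 ± 0.07, AOP1 by -0.31 ± 0.06 and the glucosyltransferase UGT74B1 by 0.27 ± 0.06, of which BCAT4 was the stable one.

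Other regulators gave few calls. In the ERF and DREB family, to which both transgenes belong, 2 of 6 Arabidopsis members were lower. The DREB-type factor tny measured 8.66 and 8.48 in the SUB1A arrays against 9.41 and 9.24, a difference of -0.75 ± 0.09 with no overlap. TINY2 changed by -0.36 ± 0.07, was not stable and lost its call with the WT arrays in the fit. Among bZIP factors 2 of 22 were lower, BZIP34 at -0.72 ± 0.09 and BZIP61 at -0.51 ± 0.07, and both were stable. The bHLH factors FMA (FAMA) and SPCH, which drive the stomatal lineage, changed by -0.36 ± 0.06 and -0.27 ± 0.07. The C2H2 repressor STZ, a stress-induced zinc finger protein, differed by 0.47 ± 0.12 (adjusted p = 0.0423). None of FMA, SPCH and STZ was stable, and STZ lost its call with the WT arrays in the fit.

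Hormone classes were measured in part. Auxin response genes were lower at 5 of 18 measured members (27.8%) and higher at 1, while the class median was -0.04. After GH3.3, the repressor gene IAA29 measured 6.22 and 6.40 in the SUB1A arrays against 6.93 and 7.13. GH3.17, another auxin-conjugating enzyme, measured 8.75 and 8.72 against 9.32 and 9.31. Both were low in the SUB1A arrays without overlap, by -0.72 ± 0.09 and -0.58 ± 0.06. LBD16, a factor of lateral root initiation, was the higher member: it measured 7.77 and 7.86 against 7.01 and 7.07, a difference of 0.77 ± 0.06. The count of lower members was 3 without SUB1C replicate 1.

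Gibberellin genes had 3 of 7 members higher and 1 lower, none of them stable. The receptor gene GID1A measured 9.67 and 9.60 against 9.28 and 9.24, and the F-box gene SLY1, which targets DELLA repressors for degradation, measured 9.46 and 9.51 against 9.23 and 9.05. The gaps were small, 0.38 ± 0.06 and 0.34 ± 0.07. The receptor GID1B was higher by 0.27 ± 0.06 and XERICO, a RING protein linked to gibberellin and abscisic acid, changed by -0.24 ± 0.06. XERICO lost its call with the WT arrays in the fit. The number of higher members was 1 without SUB1A replicate 2 or SUB1C replicate 1 and 0 without SUB1C replicate 2. In the smaller classes, the jasmonate-linked JRG21 was higher by 0.71 ± 0.12 and OPCL1, an enzyme of jasmonate synthesis, by 0.34 ± 0.08. Neither was stable, and JRG21 was near background in the SUB1C arrays. The 6 cytokinin genes differed by -0.12 to 0.03, and the lines overlapped at each. Their median level was 5.14 and 5.13 in the SUB1A arrays and 5.17 and 5.23 in the SUB1C arrays. That is close to the near-background level of 5, where a difference may not be detectable.

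Among genes that loosen or rebuild the primary wall, a minority of members was lower. Expansins, which loosen walls during growth, were lower at 6 of 19 measured genes (31.6%), 4 of them stable, and 0 were higher by limma (2 at an unadjusted p under 0.05). EXPB3 measured 10.08 and 10.40 in the SUB1A arrays and 11.09 in both SUB1C arrays. EXPA15 measured 8.87 and 9.12 against 9.80 and 9.75. With EXPA8 these were the largest gaps of the class, -1.36 ± 0.07 for EXPA8, -0.85 ± 0.10 for EXPB3 and -0.78 ± 0.09 for EXPA15, each with the SUB1A arrays low. The remaining lower members were EXPA7, EXPA18 and EXLA2, between -0.49 and -0.40, and 13 expansins were not past the threshold. The class median was -0.06.

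Xyloglucan endotransglucosylases, which cut and rejoin wall xyloglucan, were lower at 3 of 10 genes. XTH32 measured 9.56 and 9.58 against 10.17 and 10.31, a gap of -0.67 ± 0.07, XTH33 changed by -0.41 ± 0.06 and XTH20, which was not stable, by -0.43 ± 0.08. Of the cellulose synthase-like and cellulase genes 5 of 27 were lower (18.5%), among them the endoglucanases GH9B13 at -0.73 ± 0.08 and GH9B8 at -0.66 ± 0.07. That count was 2 without SUB1A replicate 1, without SUB1C replicate 1 or without SUB1C replicate 2. No member of either class was higher by limma, and 1 xyloglucan enzyme and 0 cellulose genes were higher at an unadjusted p under 0.05. HRGP1, a hydroxyproline-rich wall protein, changed by -0.66 ± 0.09, from a probe set that can cross-hybridise with related genes.

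Wall genes with other roles went both ways. The pectin methylesterase gene PME61 measured 6.15 and 6.42 in the SUB1A arrays against 7.51 and 7.35, and ATPMEPCRB, of the same enzyme family, measured 10.06 and 10.28 against 9.23 and 9.33. The lines were apart at both in opposite order, by -1.14 ± 0.10 and 0.89 ± 0.08, and ATPMEPCRB had an adjusted p of 0.0568 with the WT arrays in the fit. Among class III peroxidases, which oxidise wall phenolics, PRX52 was higher by 1.31 ± 0.14 and AT2G41480 (PRX25) by 0.85 ± 0.10, while Prx37 changed by -0.51 ± 0.07 (adjusted p = 0.0534 with the WT arrays in the fit) and PRXR1 by -0.29 ± 0.06. TRICHOME BIREFRINGENCE-LIKE proteins, which acetylate wall polysaccharides, had TBL37 higher by 0.99 ± 0.07 and 4 of 24 members lower, led by TBL36 at -0.52 ± 0.07; the lower count was 2 without SUB1C replicate 2. The 6 lignin and suberin genes, none past the threshold as given above, differed by -0.41 to 0.24. Each was without overlap between SUB1A and SUB1C arrays, as were 55.0% of all genes.

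**Figure D4:**
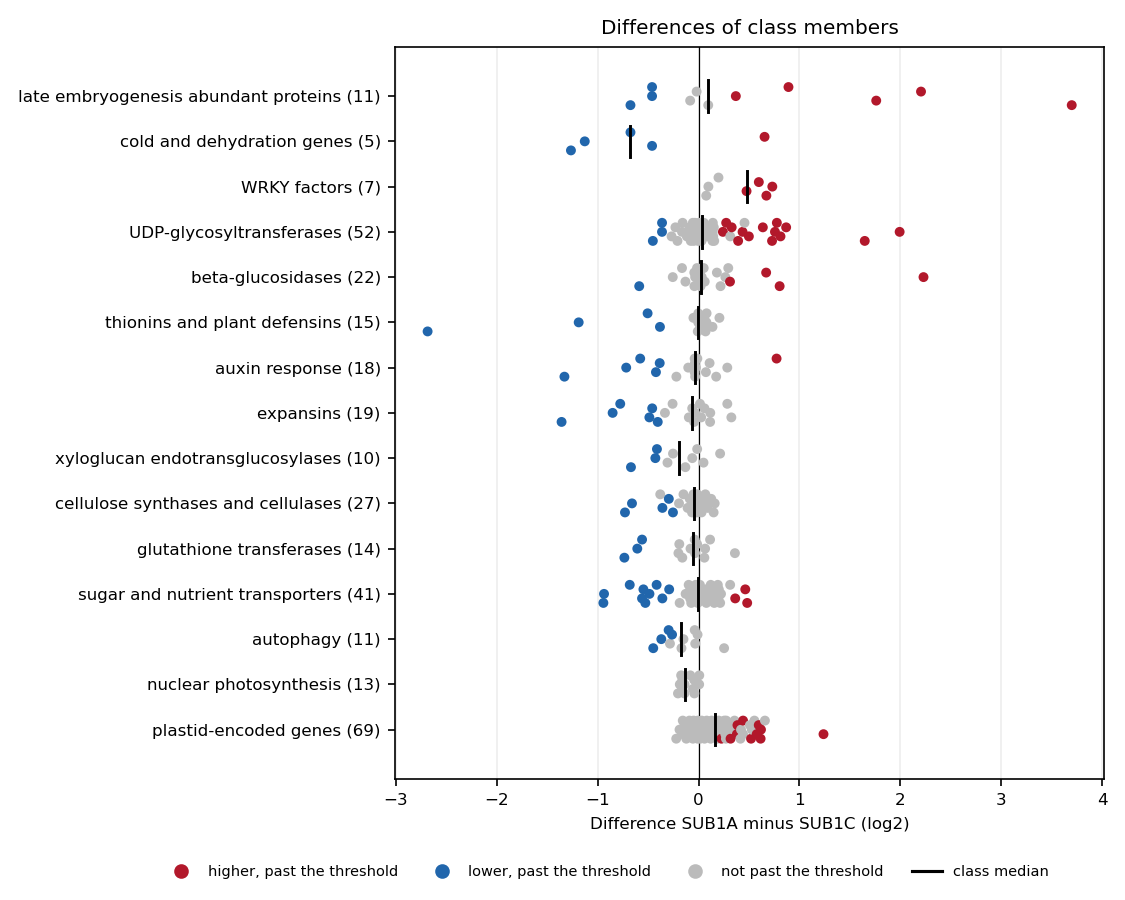
Difference between the SUB1A and SUB1C lines (x axis, log2) for every measured member of 15 classes (y axis, number of genes in brackets). Red and blue points are members past the threshold, grey points are not, and black bars are class medians. The medians of most classes lie near 0, those of the WRKY factors and the cold genes lie at 0.48 and -0.67, and the LEA proteins span from -0.67 to 3.70.

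Of the metabolic families, the UDP-glycosyltransferases, which attach sugars to hormones, phenolics and foreign compounds, held the most calls. They were higher at 14 of 52 measured genes (26.9%) and lower at 3 (5.77%), and 8 of the higher ones were stable against 0 of the lower ones. UGT76E12 measured 7.15 and 6.79 in the SUB1A arrays against 5.41 and 5.24, and UGT87A2 measured 10.41 and 10.20 against 9.57 and 9.31. The SUB1A arrays were the high ones at both, by 1.65 ± 0.12 and 0.87 ± 0.11. UGT85A2, UGT73B4, UGT71B1 and UGT76B1, the last of which glycosylates immune regulators, were higher by 0.64 to 0.81. The largest of the lower members, UGT72E2, which glycosylates lignin precursors, changed by -0.45 ± 0.07. The median over the 52 genes was 0.03, 35 were not past the threshold and 38 (73.1%, against 55.0% of all genes) had no overlap between the lines. The higher count was 9 without SUB1C replicate 2.

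Glutathione transferases, which detoxify electrophiles, were lower at 3 of 14 genes (21.4%), all 3 stable, and higher at 0 by limma (1 at an unadjusted p under 0.05). GSTU28 measured 7.28 and 7.26 against 8.15 and 7.86, GSTU18 changed by -0.61 ± 0.06 and GSTU26 by -0.56 ± 0.06. Cytochrome P450 genes of the CYP71B group appeared on both sides, with CYP71B24 at 0.65 ± 0.09, CYP71B23 at 0.60 ± 0.06 and CYP71B37 at -0.79 ± 0.09. ICL, the isocitrate lyase of the glyoxylate cycle that turns seed oil into sugar, measured 8.29 and 8.52 in the SUB1A arrays against 7.48 and 7.04, higher by 1.15 ± 0.15 (adjusted p = 0.00439). CHIL, a helper protein of flavonoid synthesis, changed by -0.51 ± 0.09.

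Sugar and nutrient transporters were lower at 10 of 41 measured genes (24.4%, against 6.07% of all genes) and higher at 3. Of these, 4 lower ones and 1 higher one were stable. SWEET sugar transporters, a family for which no separate share was taken, were among the lower members, and SWEET11 was higher. SWEET13 measured 6.27 and 6.43 in the SUB1A arrays against 7.27 and 7.32, and AT2G26690 (NPF6.2), of the nitrate and peptide transporter family, measured 8.85 and 8.98 against 9.86 and 9.85. The gaps, -0.94 ± 0.07 at both genes, were without overlap. SAG29, also known as SWEET15, changed by -0.68 ± 0.06, SWEET2 by -0.55 ± 0.11 and SWEET1 by -0.49 ± 0.08. SWEET11, a phloem-loading exporter, was higher by 0.36 ± 0.06, with 11.82 in both SUB1A arrays against 11.45 and 11.47. TMT3, a vacuolar sugar transporter, and GTR2, a glucosinolate transporter, were higher by 0.48 ± 0.08 and 0.46 ± 0.06. The lower count was 4 without SUB1C replicate 1 and 5 without SUB1C replicate 2. In starch metabolism, apart from QQS, the amylase gene AMY1 was higher by 0.47 ± 0.09, the starch-phosphorylating PWD by 0.44 ± 0.07, and APL3, a subunit of ADP-glucose pyrophosphorylase, changed by -0.56 ± 0.12. None of these 3 was stable.

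Photosynthesis genes of the nucleus and genes of the plastid gave different counts, and the difference between these classes was not tested. Of the 13 nuclear photosynthesis genes 0 passed by limma and 6 were lower at an unadjusted p under 0.05, against 1651 of all 13355 genes. At 11 of them (84.6%, against 55.0% of all genes) the lines did not overlap, and their differences lay between -0.20 and 0.01 with a median of -0.14. Genes encoded in the plastid were higher at 11 of 69 (15.9%) and lower at 0 by limma (1 at an unadjusted p under 0.05). Of the 69 differences 49 were above 0, with a median of 0.17. The lines did not overlap at 31 of these genes (44.9%, a smaller share than the 55.0% of all genes). The median level of the plastid class was 11.891 and 11.999 in the SUB1A arrays and 11.862 and 11.999 in the SUB1C arrays. This level varied more between the replicates of a line than between the lines. petG, a subunit of the cytochrome b6f complex, measured 7.81 and 7.94 in the SUB1A arrays against 6.61 and 6.66. psbA, encoding a reaction centre protein of photosystem II, measured 10.85 and 10.62 against 10.11 and 10.12, and rbcL, encoding the large subunit of Rubisco, measured 10.29 and 10.07 against 9.65 and 9.55. The SUB1A arrays were high at each, by 1.24 ± 0.07, 0.62 ± 0.08 and 0.58 ± 0.09. The plastid count was 4 without SUB1A replicate 1, 21 without SUB1A replicate 2 and 3 without SUB1C replicate 1. Of 12 mitochondrial genes cox1 and nad5 were higher, by 0.25 ± 0.06 and 0.26 ± 0.06, neither of them stable, and the nad5 probe set can read more than 1 transcript.

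Autophagy genes were lower at 4 of 11 measured members (36.4%), and 1 of 11 differences was above 0, with a median of -0.17. The 4 were ATG8 genes, whose small ubiquitin-like proteins are attached to autophagosome membranes. ATG8E measured 9.07 and 9.30 in the SUB1A arrays against 9.54 and 9.72, and ATG8H measured 8.83 and 8.63 against 9.16 and 9.05. The SUB1A arrays were low at both by narrow margins, -0.45 ± 0.10 and -0.37 ± 0.08. ATG8C changed by -0.30 ± 0.07 and ATG8F by -0.26 ± 0.06. None was stable: the count was 1 without SUB1A replicate 1, 2 without SUB1A replicate 2 and 0 without either SUB1C array. ATG8B differed in the other direction, by 0.25, without passing.

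Senescence genes were higher at 4 of 5 measured members, but 3 of these, WRKY53, WRKY6 and SAG101, are counted in other classes above, and the fourth, YLS5, was higher by 0.30 ± 0.08. SAG29 was the lower one. Only WRKY53 and WRKY6 of the higher members were stable, and the count was 2 without SUB1A replicate 2 and 2 without SUB1C replicate 2. Of the growth and cell structure classes, calmodulin-binding IQD22, of a family linked to microtubules, measured 9.67 and 9.42 against 7.74 and 7.90, higher by 1.73 ± 0.10, while 20 of the 23 genes of its class did not pass. The actin-binding NET3A was higher by 0.69 ± 0.06, and TET5, a tetraspanin, by 0.55 ± 0.07. The signalling peptide RALFL24 changed by -0.40 ± 0.06 and STOMAGEN, which promotes stomata, by -0.30 ± 0.06; lower peptides and tetraspanins numbered 5 of 34 (14.7%), and 1 without SUB1C replicate 1 or 2 without SUB1C replicate 2. The Rab-receptor family genes PRA1.F1 and PRA8 changed by -0.64 ± 0.06 and -0.51 ± 0.07, in a vesicle traffic class with 4 of 43 lower members, 2 without SUB1C replicate 1. Of 46 MADS-box and other flowering regulators, AGL42 was lower and AGL26 higher, and of 45 ubiquitin and proteasome genes 3 passed. Near background in both lines were 22 of the 46 flowering regulators, against 2309 of all 13355 genes.

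Markers of cell types were measured only in small part, and fewer cells of a type and less RNA per cell cannot be told apart in whole seedlings. Of 13 root markers 3 were measured: the root hair expansins EXPA7 and EXPA18 were lower, and the root beta-glucosidase PYK10 differed by 0.02 ± 0.06, at 14.1 to 14.2 in all 4 arrays. The mean level of these 3 was 9.91 and 9.93 in the SUB1A arrays and 10.27 and 10.18 in the SUB1C arrays. RCA, the 1 measured of 11 green shoot markers, lay between 14.6 and 14.7 in all 4 arrays. Of 8 stomatal markers 3 were measured, with a mean level of 6.52 and 6.61 against 6.75 and 6.66, and SPCH and FMA were lower while MUTE differed by 0.21 ± 0.09 (adjusted p = 0.201). Among 15 seed markers M17 and M10 were measured, and M10 lay between 5.0 and 5.2 in all arrays of both lines. TRY, of the trichome list, and CLV3, of the shoot meristem list, were not past the threshold, and no flower or vascular marker was measured. The part of cell composition in the wall, stomatal and LEA results was not tested.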

How the data were processed

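Whole-seedling RNA was hybridised to Affymetrix ATH1 arrays. Per the submitters' processing notes, the deposited log2 values come from RMA, which corrects background, normalizes across arrays and summarises the probes of a set, in a version not given in the sources used here. Sample titles gave the groups.

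A two-sided limma test (version 3.58.1, R 4.3.3, functions lmFit and eBayes) was run on the 2 SUB1A and 2 SUB1C arrays alone, with 2 residual and 4.72 prior degrees of freedom, and Benjamini-Hochberg adjustment over 22746 probe sets, after removal of 64 controls. Of these probe sets 13513 list 1 gene, 503 several and 8730 none, from a platform annotation that can be old. Of the 13513 probe sets that list 1 gene, 13436 matched a RefSeq gene. A gene with several probe sets was read by the brightest.

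Classes were built from gene symbols and synonyms, overlap in part, and miss genes without a listed name. The members, classes and gene lists were chosen with earlier results of these data known, and classes were given no set test. Named genes were the 12 largest differences in each direction without overlap between lines; in classes of at least 5 genes, up to 3 called members in a direction whose share was at least 1.5 times that of all genes, otherwise up to 2; and 12 fixed names, of which 5 were measured (PDF1.2, COR15A, GID1A, GH3.3 and QQS). The remaining fixed names, ADH1, PDC1, HB1, RD29A, GA20OX1, FT and FLC, were not measured. Other members named, including those of classes under 5 genes, were chosen after their values were seen.

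The fit was tested on simulated data for this comparison, with 50 of 22746 probe sets changed at each size: it recovered 0% at a log2 difference of 0.25, 28% at 0.5, 72% at 1 and 92% at 2, with 1 false call. The simulation held fewer changed probe sets than the data had calls, which makes its adjusted threshold stricter. Alternatives were all 6 arrays in the fit, a replicate block, renewed quantile normalization, median centring, a filter on levels of 5, robust or trended moderation, a threshold of 0.01, averaged probe sets per gene and leaving out each array. Rice transgene levels and promoter sequences were not analysed here. Genome positions served only to find the genes beside AT2G47710 and QQS.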

Additional observations from a re-analysis of the deposited data

How the results depend on the processing

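No named gene past the threshold changed direction in the alternatives run for single genes, which were all but the stricter threshold and the averaged probe sets. The number of probe sets past the threshold was 1224 at an adjusted p of 0.01 (576 higher and 648 lower). It lay between 1231 and 2561 when 1 array was left out, with 604 to 1163 higher and 627 to 1398 lower, and the number differing at least 2-fold between 190 and 204. With all 6 arrays in the fit it was 2742, with renewed quantile normalization 3057, with median centring 3039, with the filter on dim probe sets 3214, with robust moderation 2995 and with trended moderation 3832. Thionins and defensins lower in the SUB1A line numbered 2 with all 6 arrays.

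Leaving out 1 array in turn, higher members numbered 4 to 5 for LEA proteins, 3 to 4 for WRKY factors, 9 to 13 for UDP-glycosyltransferases, 3 to 5 for beta-glucosidases, 2 to 3 for cytochrome P450 genes, 0 to 2 for gibberellin genes, 3 to 21 for plastid-encoded genes and 2 to 4 for senescence genes. Lower members numbered 2 to 3 for LEA proteins, 4 in each case for cold genes, 3 in each case for glutathione transferases, 5 to 8 for expansins, 2 to 4 for xyloglucan enzymes, 2 to 5 for cellulose genes, 3 to 5 for auxin genes, 2 to 4 for thionins and defensins, 4 to 10 for transporters, 0 to 2 for autophagy genes, 1 to 5 for signalling peptides, 2 to 6 for TRICHOME BIREFRINGENCE-LIKE proteins and 2 to 4 for vesicle traffic genes. Of 127 named genes, 73 stayed past the threshold whichever array was left out and 109 under the other alternatives run for single genes. Each such fit leaves a line with 1 array, assumed to vary like the other line, and the smaller number of arrays alone makes it stricter.

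The lines share replicate numbers, but the labels do not say what a number marks, so the numbers were not treated as pairs. The deviations from the line means of same-numbered arrays correlated at 0.02 over probe sets. With the replicate number as a block 3052 probe sets were past the threshold, and lower xyloglucan enzymes numbered 5. Detection calls were not used here, and differences near background can be compressed.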

Other observations

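The WT arrays, which are not part of the contrast, give the position of each line for the 24 largest differences. The WT mean was nearer the SUB1C mean for 21 of these genes and nearer the SUB1A mean for 3, which were AT2G47710, QQS and AT5G38910.

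Genes beside AT2G47710 and QQS, the extremes in each direction, were read for their own differences. Of the 6 nearest measured neighbours of AT2G47710, 3 on each side, 2 were higher in the SUB1A line, AT2G47690 by 0.40 ± 0.06 (limma, adjusted p = 0.00640) and AT2G47680 by 0.25 ± 0.06 (adjusted p = 0.0335), and 4 had an unadjusted p under 0.05. Over all genes, 3442 of 13355 had an unadjusted p under 0.05. The 6 nearest measured neighbours of QQS differed by -0.12 to 0.13, with 0 past the threshold by limma and 0 at an unadjusted p under 0.05. Of these 6, 5 were below 5 in all 4 arrays, near background, where a difference may not be detectable.

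Probe sets with no listed gene held 1436 of 8730 past the threshold, against 3026 of all 22746 probe sets (13.3%). The probe set furthest above the SUB1C line had 8.76 and 8.71 in the SUB1A arrays against 5.80 and 5.56 in the SUB1C arrays, a difference of 3.06 ± 0.09. The one furthest below had 6.15 and 6.07 against 8.06 and 8.24, a difference of -2.04 ± 0.08.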
